A study of Mus musculus with 16 samples.

Results

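The levels of 40 genes of glycerophospholipid synthesis and remodelling were examined in RAW264.7 cells, a macrophage-like line that arose from an Abelson virus-induced mouse tumour. The genes were taken by function from a list of symbols, with earlier results of these data known. Each of the 40 symbols matched 1 of the 55573 gene records in the count file. Expression was measured by sequencing of stranded poly(A) libraries, with 4 libraries in each of 4 groups. The genotype labels are ORP5/8 KD, ATP11A/C KD, CDC50A KD and Parental, and KD is taken to stand for knockdown. ORP5 and ORP8 (genes Osbpl5 and Osbpl8) deliver phosphatidylserine made in the endoplasmic reticulum to the cell surface membrane. ATP11A is a flippase, which moves phosphatidylserine to the inner leaflet of the plasma membrane, and CDC50A (gene Tmem30a) is the subunit that such flippases need. No treatment or age is given, and all groups carry the same cell line label. Names of KD libraries start with "sh", an abbreviation left unexplained in the labels. Those of Parental libraries start with "Ctrl", and no construct is named for Parental. A non-targeting control was not analysed here, the labels do not say whether a KD line is a clone, and they do not say whether the 4 libraries of a group came from separate cultures. The p-values therefore rest on differences between these libraries that may be technical.

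Glycerophospholipids are built on glycerol phosphate, which is acylated in successive steps to phosphatidate. Phosphatidate is then either dephosphorylated to diacylglycerol, to which the Kennedy branch attaches choline or ethanolamine, or activated to CDP-diacylglycerol, the precursor of phosphatidylinositol and cardiolipin. Phosphatidylserine is made by exchange of serine into the other phospholipids. Phospholipases remove acyl chains or head groups, lysophospholipid acyltransferases put new chains on (the Lands cycle), and in macrophages this turnover releases arachidonate and reshapes membranes.

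Promoters of 4 of the genes are shown as examples. The phospholipase D family genes Pld1 and Pld3 were lower in every KD group, Pld4 was lower in ATP11A/C KD and CDC50A KD, and Pcyt1a had its largest difference in ORP5/8 KD. Each sequence holds 250 bases before and 50 bases after the annotated start, is read 5′ to 3′ on the gene's strand, and comes from RefSeq on GRCm38.p6. Capitals mark matches to a motif searched on both strands. The motifs were the sterol element TCACNCCAC, the interferon element core GAAANNGAA, the lysosomal E-box TCACGTGA and the PU.1 motif GAGGAAGT, and none of them overlaps another in these 4 windows.
Pld1 (chr3:27938430-27938729, plus strand): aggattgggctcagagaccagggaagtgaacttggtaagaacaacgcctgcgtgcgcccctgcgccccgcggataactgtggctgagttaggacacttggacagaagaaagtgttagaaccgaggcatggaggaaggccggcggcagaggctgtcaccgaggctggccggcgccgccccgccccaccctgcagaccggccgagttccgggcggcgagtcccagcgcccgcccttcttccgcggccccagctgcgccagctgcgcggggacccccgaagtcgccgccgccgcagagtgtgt
Pld3 (chr7:27553169-27553468, minus strand): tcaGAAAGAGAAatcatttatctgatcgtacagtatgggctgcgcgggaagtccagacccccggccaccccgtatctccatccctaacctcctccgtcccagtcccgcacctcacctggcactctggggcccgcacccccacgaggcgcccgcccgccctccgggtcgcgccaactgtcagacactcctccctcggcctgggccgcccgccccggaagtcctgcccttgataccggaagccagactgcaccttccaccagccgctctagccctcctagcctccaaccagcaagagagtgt
Pld4 (chr12:112760405-112760704, plus strand): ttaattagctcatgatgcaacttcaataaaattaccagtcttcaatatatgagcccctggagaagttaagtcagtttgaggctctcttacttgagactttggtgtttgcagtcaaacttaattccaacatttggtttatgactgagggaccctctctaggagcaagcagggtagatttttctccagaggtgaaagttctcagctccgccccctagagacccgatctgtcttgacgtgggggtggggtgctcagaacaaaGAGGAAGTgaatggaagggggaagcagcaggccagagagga
Pcyt1a (chr16:32430671-32430970, plus strand): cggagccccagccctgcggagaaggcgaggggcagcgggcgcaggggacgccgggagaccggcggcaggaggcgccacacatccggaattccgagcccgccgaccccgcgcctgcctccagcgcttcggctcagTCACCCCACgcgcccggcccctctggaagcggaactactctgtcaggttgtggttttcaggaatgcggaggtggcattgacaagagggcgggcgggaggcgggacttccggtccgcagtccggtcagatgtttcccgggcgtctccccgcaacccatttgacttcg
Of the 40 genes, 35 had a promoter entry and Agpat5, Cdipt, Gpat4, Pcyt2 and Ptdss1 had none. For each of the 35, only the entry nearest the annotated gene start was used. Values over all promoters take every distinct entry, whether or not its gene was tested, so the sets differ in kind. The sterol element was found in 1 of the 35 promoters (Pcyt1a, 2.86%), against 1.24% of all 32817 promoters in the table. The interferon core was found in 2 (Pla2g6 and Pld3, 5.71%), against 8.55% of all promoters. The PU.1 motif was found in 1 (Pld4, 2.86%) against 3.20%, and the lysosomal E-box in 0 of 35 against 0.975%. Of the promoters shown, those of Pld3, Pld4 and Pcyt1a thus hold a match and that of Pld1 does not. Agpat4, Chpt1, Cds1, Mboat1, Lpin2, Etnk1 and Gpat3 changed by at least 1.5-fold in a KD group, and their promoters, not shown, hold no match. A match describes letters in the window and does not show a binding site. The median GC content was 64.0% in the 35 promoters, against 52.7% in all promoters.

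The libraries held 24020890 to 41543050 counts each. All 40 genes passed the filter on low counts, and the smallest count of any of them in any library was 35. Of the macrophage markers, 8 of 8 were tested, and their summed level was 6960 to 7353 CPM in ORP5/8 KD, 5652 to 6028 CPM in ATP11A/C KD, 6541 to 6801 CPM in CDC50A KD and 10628 to 11296 CPM in Parental, so no KD library overlapped Parental. CPM are counts-per-million after TMM scaling. Lyz2 made up most of that difference, at 4168 ± 170.3 CPM in ORP5/8 KD, 2859 ± 60.1 CPM in CDC50A KD and 2582 ± 133 CPM in ATP11A/C KD, against 7207 ± 301 CPM in Parental. Without Lyz2 the sum was 2952 to 3065 CPM in ORP5/8 KD, 3071 to 3485 CPM in ATP11A/C KD and 3698 to 3858 CPM in CDC50A KD, against 3669 to 3846 CPM in Parental, so CDC50A KD then overlapped Parental. Adgre1 was higher in every KD group, at 77.7 ± 1.04 CPM in ORP5/8 KD, 104 ± 5.22 CPM in ATP11A/C KD and 95.2 ± 3.28 CPM in CDC50A KD, against 67.3 ± 2.16 CPM in Parental. Itgam, Cd68 and Ptprc were lower in every KD group, with no overlap with Parental. Itgam was at 112 ± 4.96 CPM in ORP5/8 KD, 122 ± 2.95 CPM in ATP11A/C KD and 139 ± 7.82 CPM in CDC50A KD, against 177 ± 8.71 CPM in Parental. Csf1r, the most abundant marker after Lyz2, was at 2124 ± 44.9 CPM in CDC50A KD and 1537 ± 43.9 CPM in ORP5/8 KD, against 1872 ± 31.7 CPM in Parental. Fcgr1 was at 79.4 CPM in ORP5/8 KD against 160 CPM in Parental. Mitochondrial genes took 1.68% ± 0.112 of the counts in ORP5/8 KD, 1.63% ± 0.151 in CDC50A KD and 1.56% ± 0.194 in ATP11A/C KD, against 1.19% ± 0.0744 in Parental (SD, n = 4 each). The part of either shift in the results on the 40 genes was not tested. The 4 epithelial markers were at 0 in every library, and Col1a2, Dcn, Cd3e, Nkg7, Mpo, Cpa3, Flt3 and Cd209a were at 0 too. The summed level of each list of 4 markers of fibroblasts, lymphocytes, neutrophils with mast cells, or dendritic cells was at most 2.97 CPM. In bulk libraries, fewer cells that express a gene and less of its RNA per cell cannot be told apart. Of the targeted genes, Osbpl8 was at 99.1 ± 8.17 CPM in ORP5/8 KD, 127 ± 8.99 CPM in ATP11A/C KD and 116 ± 4.41 CPM in CDC50A KD, against 337 ± 5.84 CPM in Parental, so it was low in every KD group and not in ORP5/8 KD alone. Atp11a was at 53.3 ± 0.604 CPM in ORP5/8 KD, 21.4 ± 0.843 CPM in ATP11A/C KD and 43.1 ± 1.36 CPM in CDC50A KD, against 61.4 ± 1.91 CPM in Parental. Tmem30a was at 130.5 ± 10.4 CPM in ORP5/8 KD, 142 ± 13.1 CPM in ATP11A/C KD and 127 ± 5.80 CPM in CDC50A KD, against 162 ± 4.83 CPM in Parental, and the KD groups overlapped one another. Osbpl5 was at or under 0.391 CPM in every library.

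The 40 genes together took 0.270% ± 0.00274 of the counts in ORP5/8 KD, 0.249% ± 0.00174 in CDC50A KD and 0.264% ± 0.00425 in ATP11A/C KD, against 0.278% ± 0.00406 in Parental (SD, n = 4 each). These are shares of raw counts, without the TMM scaling used for CPM. The TMM factors were 1.03 to 1.05 in ORP5/8 KD and 0.948 to 0.971 in CDC50A KD, so the order of the KD groups in this share depends on the scaling. To compare genes with one another, CPM were divided by the exon length of the gene in kilobases. The order and overlaps below hold for the union of exons only and were not worked out with the longest transcript. For Pld1 the union is 12961 bases and the longest transcript 4849 bases, and for Pcyt2 they are 4346 and 1881 bases. On this length-scaled scale, Pld4, an endolysosomal member of the phospholipase D family, stood highest in Parental at 72.0 ± 2.58 CPM per kb, and its libraries did not overlap those of the next gene. Pla2g4a, the cytosolic phospholipase A2 that releases arachidonate, followed at 38.0 ± 0.671 CPM per kb. Cdipt, the phosphatidylinositol synthase, and Agpat1, an acyltransferase that makes phosphatidate, came next at 29.7 ± 1.48 and 29.6 ± 0.819 CPM per kb, and these neighbours overlapped. Gpat4, a glycerol phosphate acyltransferase, stood at 27.8 ± 0.517 CPM per kb and overlapped Pld3 at 26.5 ± 1.45 CPM per kb. From Cept1 down to Etnk1, 8 genes formed an unbroken run of overlapping neighbours between 23.2 ± 0.377 and 17.4 ± 0.887 CPM per kb: Cept1, Pcyt2, Lpgat1, Pgs1, Ptdss1, Lpcat4, Crls1 and Etnk1. Lpcat1 followed at 14.3 ± 0.423 CPM per kb, apart from both neighbours.

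In the lower part of the Parental order, the run from Agpat2 to Pisd held Agpat2, Mboat1, Lpcat2, Agpat5, Pcyt1a, Agpat3, Pla2g15 and Pisd at length-scaled levels between 12.8 ± 0.690 and 9.12 ± 0.247 CPM per kb, each overlapping its neighbours. Cds2 and Ptdss2 overlapped at 7.41 ± 0.282 and 7.39 ± 0.596 CPM per kb. Lclat1, Gpam, Ptpmt1 and Chkb followed, between 6.22 ± 0.325 and 5.98 ± 0.143 CPM per kb, and then Lpin2 at 5.48 ± 0.226 CPM per kb. Mboat7, Selenoi, Agpat4 and Cds1 overlapped one another in turn, from 4.68 ± 0.288 to 4.15 ± 0.203 CPM per kb. Pla2g6, Lpin1, Chpt1 and Chka stood apart from each of their neighbours at 3.13 ± 0.212, 2.49 ± 0.104, 1.81 ± 0.0513 and 1.27 ± 0.0852 CPM per kb. Gpat3, a glycerol phosphate acyltransferase, and Pld1, which cleaves phosphatidylcholine to phosphatidate, were the lowest at 0.679 ± 0.104 and 0.568 ± 0.0614 CPM per kb and overlapped. The plot of levels in Parental shows this order gene by gene.

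**Figure D1:**
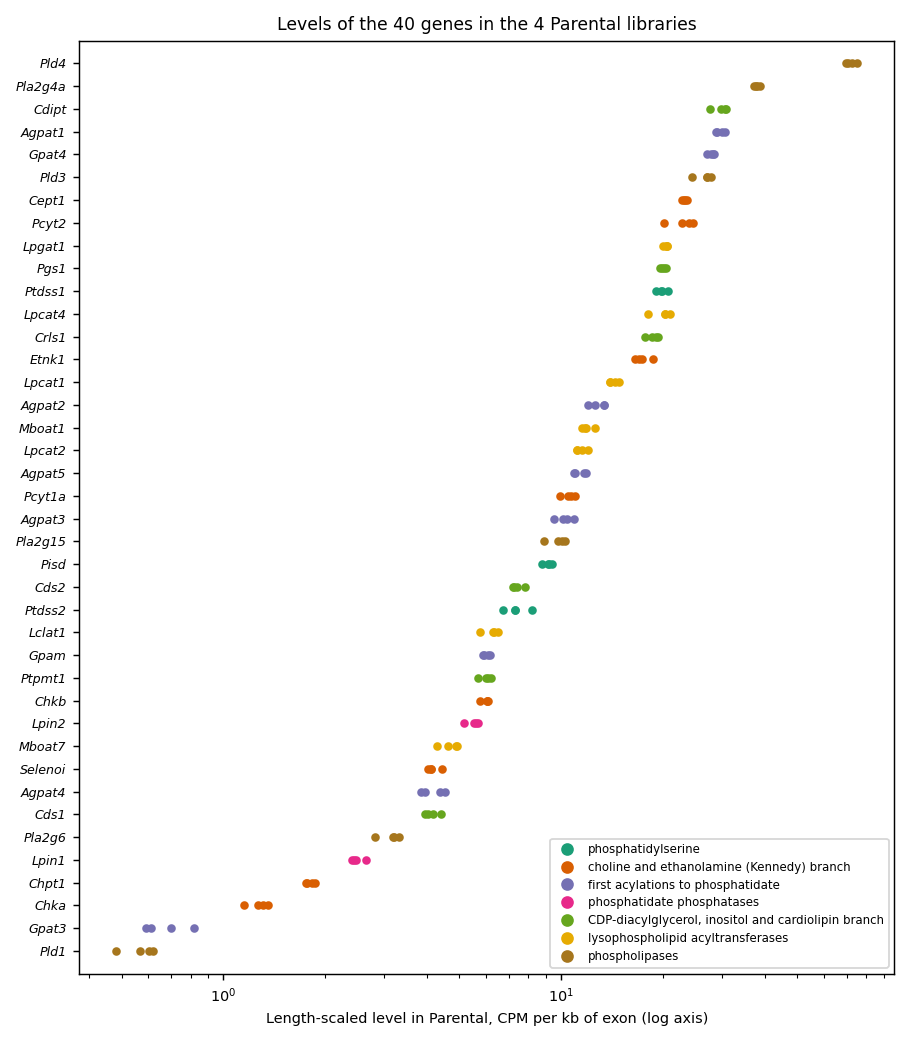
Length-scaled level of each of the 40 genes in Parental, in CPM per kb of exon on a log axis, with genes ordered by their mean and coloured by role; each point is 1 of 4 libraries. Pld4 lies highest at 72.0 CPM per kb, and Gpat3 and Pld1 lie lowest at 0.679 and 0.568 CPM per kb.

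Each KD group was compared with Parental with the quasi-likelihood test of edgeR over 13107 genes, with Benjamini-Hochberg adjustment in each comparison, and genes with an adjusted p under 0.05 were called. Changes and contrasts are given as log2 fold changes ± SE throughout, and levels as CPM ± SD. The 3 comparisons share the 4 Parental libraries, so their results are given side by side. In ORP5/8 KD, 6 of the 40 genes were called higher and 17 lower, which is 57.5% called, against 46.2% of all tested genes (22% called higher and 24.3% called lower). Genes called lower made up 42.5% of the 40, and genes called higher 15%. The median log2 fold change was -0.06 over the 40 genes and 0.02 over all genes, and the median size of the change was the same to 2 decimals, at 0.20. Under upper-quartile scaling the split in ORP5/8 KD was 11 higher and 15 lower among the 40 genes, and genes called higher made up 63.3% of all calls in place of 47.5%. Of the called genes, 21 of 23 stayed called in each of the 16 fits that left out a library.

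In ATP11A/C KD, 5 of the 40 genes were called higher and 15 lower, which is 50% called, against 37.6% of all tested genes (17.4% higher and 20.2% lower). Their median log2 fold change was -0.00, against 0.01 over all genes. The median size of the change was smaller than over all genes, at 0.12 against 0.16. The count of 5 higher genes was 3 without Parental 4, ATP11A/C KD 1 or any of CDC50A KD 1 to 4, and 9 without ATP11A/C KD 2. Upper-quartile scaling gave 7 higher and 12 lower. In CDC50A KD, 10 of the 40 genes were called higher and 14 lower, which is 60% called, against 50.4% of all tested genes (24.3% higher and 26.1% lower). Their median log2 fold change was -0.05, against -0.01 over all genes. In size, the median change was 0.17 over the 40 genes and 0.21 over all genes. The count of 10 higher genes ran from 7 without CDC50A KD 3 to 14 without ATP11A/C KD 2. It was 12 under upper-quartile scaling and with the compared groups alone. Calls that stayed in each of the 16 fits that left out a library numbered 15 of 20 in ATP11A/C KD and 17 of 24 in CDC50A KD. In the main fit, the share of the 40 genes called higher was close to the background in CDC50A KD and lay under it in ORP5/8 KD and ATP11A/C KD. The share called lower in that fit lay above the background in each group. No list test was run on these shares. Of all tested genes, 44.0% had no overlap in CPM between ORP5/8 KD and Parental libraries. That share was 33.3% for ATP11A/C KD and 48.0% for CDC50A KD, so a lack of overlap with Parental is common in these data.

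Changes of at least 1.5-fold (0.58 on the log2 scale) were called in 9 genes. In ORP5/8 KD, Lpin2 and Mboat1 were higher by that margin and Etnk1, Gpat3, Agpat4, Pld1 and Pld3 lower, which is 2 and 5 of 40, against 4.82% and 7.76% of all genes. In ATP11A/C KD, none of the 40 was higher by that margin and 6 were lower, namely Chpt1, Gpat3, Agpat4, Cds1, Pld1 and Pld3, against 2.69% and 6.99% of all genes. In CDC50A KD, none was higher and 5 were lower, namely Chpt1, Agpat4, Cds1, Pld1 and Pld3, against 3.48% and 9.38% of all genes. Just outside the margin was Lpcat2 in ORP5/8 KD, at -0.57, and just inside it was Lpin2 in ORP5/8 KD, at 0.59.

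Across the 3 comparisons, 9 of the 40 genes (22.5%) were called lower in each of the 3 KD groups, against 10.9% of all tested genes. They were Etnk1, Pcyt1a, Chpt1, Agpat4, Cds1, Lpgat1, Pla2g4a, Pld1 and Pld3. None of the 40 was called higher in all 3 groups, against 6.45% of all genes. Cept1, Selenoi, Cds2, Cdipt, Pgs1 and Mboat7 were called in none (6 of 40, 15%), against 28.0% of all genes. Another 6 genes (15%), namely Ptdss1, Chkb, Agpat3, Agpat5, Mboat1 and Lclat1, were called higher in one KD group and lower in another, against 7.18% of all genes. Of the 9 genes called lower in each group, 7 had all their calls in each of the 16 fits that left out a library, and Pcyt1a and Lpgat1 did not. Of the 6 called in both directions, Ptdss1, Agpat5 and Lclat1 kept a call each way in each of those fits, and Chkb, Agpat3 and Mboat1 did not. These patterns rest on the same Parental libraries in every comparison.

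**Figure D2:**
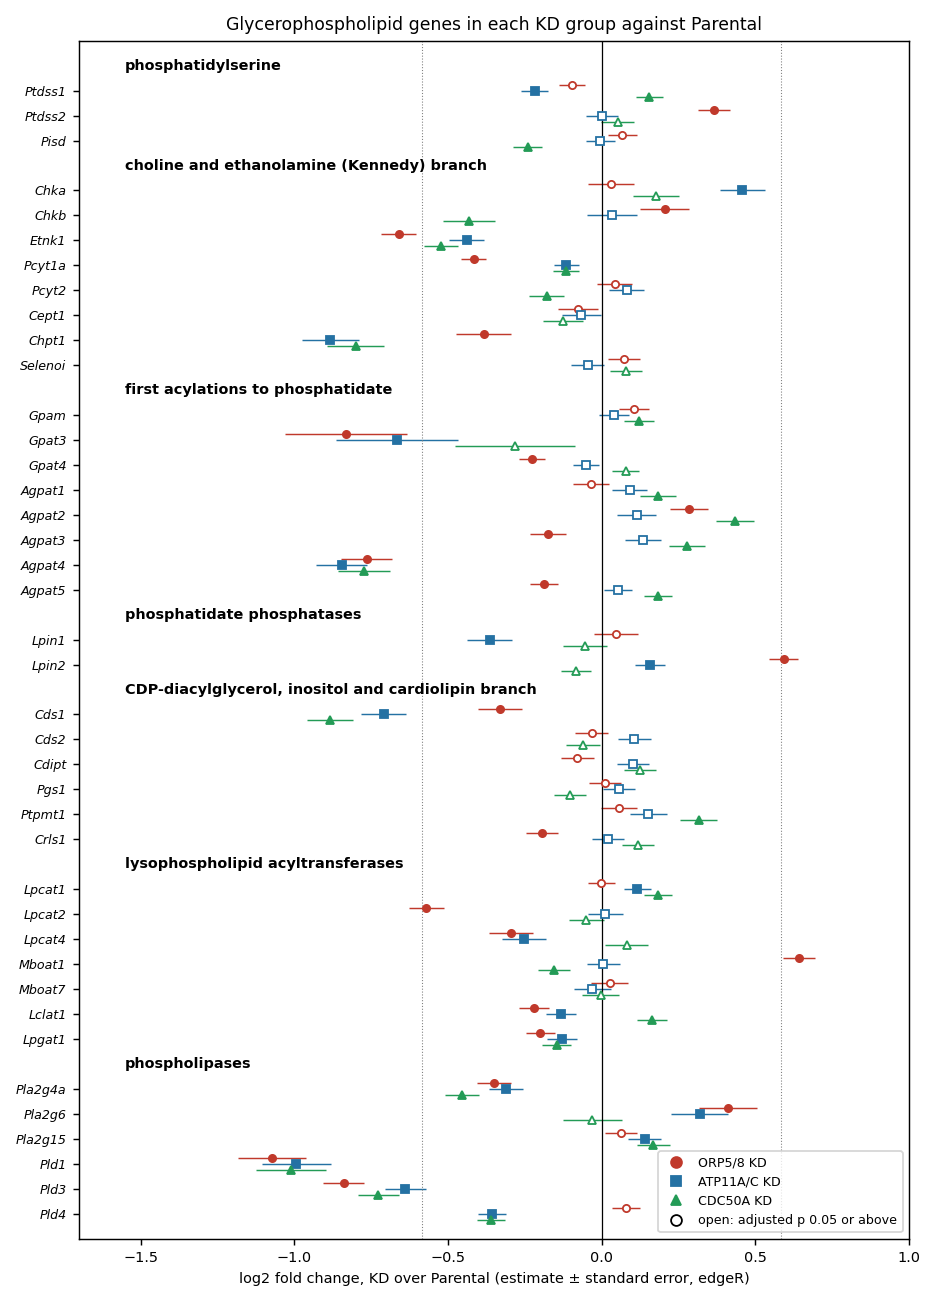
Log2 fold change of each of the 40 genes in ORP5/8 KD (red circles), ATP11A/C KD (blue squares) and CDC50A KD (green triangles) over Parental, with bars of 1 standard error, grouped by role; filled marks have an adjusted p under 0.05 and dotted lines mark a 1.5-fold change. The marks of Pld1 lie between -1.07 and -0.99 in all 3 groups, while those of Mboat1 and Lpin2 reach 0.64 and 0.59 in ORP5/8 KD.

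Phosphatidylserine is made by 2 synthases. Ptdss1 exchanges the choline of phosphatidylcholine for serine (chromosome 13, 66932830 to 66998401, plus strand, GRCm38), and Ptdss2 exchanges the ethanolamine of phosphatidylethanolamine (chromosome 7, 141122382 to 141157606, plus strand). Ptdss1 had 79.5, 81.6, 81.0 and 77.5 CPM in ORP5/8 KD, 77.6, 72.0, 72.8 and 71.2 CPM in ATP11A/C KD and 91.4, 97.3, 101 and 91.0 CPM in CDC50A KD, against 82.1, 88.9, 85.3 and 85.1 CPM in Parental. The CDC50A KD libraries were the highest of the 16 and the ATP11A/C KD libraries the lowest but for the overlap of ATP11A/C KD 1 with ORP5/8 KD, and no KD library overlapped Parental. Ptdss1 fell in ATP11A/C KD, with a log2 fold change of -0.22 ± 0.04 (SE; edgeR adjusted p = 4.42e-04), and rose in CDC50A KD, by 0.16 ± 0.04 (edgeR adjusted p = 0.00511). In ORP5/8 KD its log2 fold change was -0.10 ± 0.04 (edgeR adjusted p = 0.0759). The direct contrast of CDC50A KD with ATP11A/C KD was 0.37 ± 0.04 (edgeR adjusted p = 6.19e-06).

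Ptdss2 had 51.9, 53.6, 54.3 and 54.7 CPM in ORP5/8 KD, 44.0, 39.4, 42.2 and 40.9 CPM in ATP11A/C KD and 44.7, 41.8, 42.2 and 43.9 CPM in CDC50A KD, against 41.2, 41.1, 38.0 and 46.1 CPM in Parental. The 4 ORP5/8 KD libraries lay above the 12 others, which overlapped. Ptdss2 rose in ORP5/8 KD by a log2 fold change of 0.37 ± 0.05 (1.29-fold, edgeR adjusted p = 6.49e-06), and also stood above ATP11A/C KD by 0.36 ± 0.05 and above CDC50A KD by 0.31 ± 0.05 (edgeR adjusted p = 8.88e-06 and 3.52e-05). Against Parental it was 0.00 ± 0.05 for ATP11A/C KD and 0.05 ± 0.05 for CDC50A KD (edgeR adjusted p = 0.992 and 0.430).

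Pisd, the mitochondrial decarboxylase that turns phosphatidylserine into phosphatidylethanolamine (chromosome 5, 32736301 to 32785646, minus strand), had 54.6, 54.5, 58.2 and 52.7 CPM in ORP5/8 KD, 51.4, 50.4, 52.5 and 55.1 CPM in ATP11A/C KD and 45.2, 41.2, 43.8 and 47.1 CPM in CDC50A KD, against 53.8, 52.9, 50.5 and 52.6 CPM in Parental. The 4 CDC50A KD libraries were the lowest of the 16. Pisd fell in CDC50A KD, at a log2 fold change of -0.24 ± 0.05 against Parental (edgeR adjusted p = 2.70e-04), and of -0.24 ± 0.05 against ATP11A/C KD (edgeR adjusted p = 0.00112), and ORP5/8 KD stood above CDC50A KD by 0.31 ± 0.05 (edgeR adjusted p = 1.30e-05). Pisd shares 23.5% of its exon length with other records on its strand, which had 0 counts in every library. The pseudogene copies Pisd-ps1 and Pisd-ps2 could split reads with it. Pisd-ps1 stood at 2.03 ± 0.528 CPM in ORP5/8 KD, 2.10 ± 0.794 CPM in ATP11A/C KD and 0.700 ± 0.199 CPM in CDC50A KD, against 1.85 ± 0.392 CPM in Parental, and Pisd-ps2 at or under 0.613 CPM in every library.

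The Kennedy branch had 8 genes: in ORP5/8 KD 1 was called higher and 3 lower, in ATP11A/C KD 1 higher and 3 lower, and in CDC50A KD 0 higher and 5 lower. Over all tested genes, 22% were called higher and 24.3% lower in ORP5/8 KD, 17.4% and 20.2% in ATP11A/C KD, and 24.3% and 26.1% in CDC50A KD. Its kinases phosphorylate choline or ethanolamine, its cytidyl transferases activate the product, and its phosphotransferases attach the head group to diacylglycerol. Etnk1, an ethanolamine kinase (chromosome 6, 143167221 to 143232307, plus strand), had 169, 149, 148 and 157 CPM in ORP5/8 KD, 163, 189, 189 and 187 CPM in ATP11A/C KD and 167, 173, 161 and 184 CPM in CDC50A KD, against 241, 234, 264 and 246 CPM in Parental. Every KD library lay below every Parental library, while the KD groups overlapped one another. Etnk1 fell, with log2 fold changes of -0.66 ± 0.06 for ORP5/8 KD, -0.44 ± 0.06 for ATP11A/C KD and -0.52 ± 0.06 for CDC50A KD (edgeR adjusted p = 3.20e-09, 2.10e-06 and 1.64e-07). ORP5/8 KD was called below ATP11A/C KD, at -0.22 ± 0.06, and below CDC50A KD, at -0.14 ± 0.06 (edgeR adjusted p = 0.00339 and 0.0422). The second of these calls was lost in 10 of 16 fits that left out a library (adjusted p of up to 0.216).

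Chpt1, which completes phosphatidylcholine (chromosome 10, 88452745 to 88504073, minus strand), had 12.5, 11.6, 9.88 and 12.2 CPM in ORP5/8 KD, 8.29, 9.40, 7.44 and 7.57 CPM in ATP11A/C KD and 8.44, 7.88, 10.0 and 8.18 CPM in CDC50A KD, against 15.2, 15.6, 14.7 and 14.7 CPM in Parental. The KD libraries lay below Parental in each group, and ORP5/8 KD lay nearest to it. The log2 fold changes were -0.38 ± 0.09 for ORP5/8 KD, -0.88 ± 0.09 for ATP11A/C KD and -0.80 ± 0.09 for CDC50A KD (edgeR adjusted p = 0.00138, 1.21e-07 and 4.58e-07). ORP5/8 KD was above ATP11A/C KD by 0.50 ± 0.09 and above CDC50A KD by 0.42 ± 0.09 (edgeR adjusted p = 1.89e-04 and 7.26e-04), with an overlap in the second of these pairs. Cept1, which completes both phosphatidylcholine and phosphatidylethanolamine, and Selenoi, which completes phosphatidylethanolamine, were not called in any comparison, and their log2 fold changes against Parental lay between -0.13 and 0.08.

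Chkb, a choline and ethanolamine kinase (chromosome 15, 89426360 to 89429908, minus strand), had 22.3, 18.8, 22.4 and 20.9 CPM in ORP5/8 KD, 16, 22.1, 19.3 and 17.6 CPM in ATP11A/C KD and 14.2, 13.2, 13.1 and 13.6 CPM in CDC50A KD, against 18.5, 17.7, 18.4 and 18.6 CPM in Parental. The CDC50A KD libraries lay below the other 12, and the ATP11A/C KD libraries spread across those of Parental. Chkb fell in CDC50A KD, at a log2 fold change of -0.43 ± 0.08 (edgeR adjusted p = 2.09e-04), and ORP5/8 KD exceeded CDC50A KD by 0.64 ± 0.08, or 1.55-fold (edgeR adjusted p = 1.43e-06). The call in ORP5/8 KD, 0.21 ± 0.08 against Parental (edgeR adjusted p = 0.0422), was lost without Parental 2, 3 or 4 or ORP5/8 KD 1, 3 or 4, with an edgeR adjusted p of up to 0.0879. It was also lost with a block on replicate number (edgeR adjusted p = 0.0635). Chkb shares 50.7% of its exon length with Gm44502, which had 0 to 62.8 counts per library. The sum of both records was 21.7 ± 1.98 CPM in ORP5/8 KD, 18.9 ± 2.53 CPM in ATP11A/C KD and 13.6 ± 0.457 CPM in CDC50A KD, against 18.6 ± 0.690 CPM in Parental. Its paralogue Chka, a choline kinase, rose in ATP11A/C KD, with 20.3, 21.9, 22.2 and 19.4 CPM, against 13.9, 15.2, 15.7 and 16.3 CPM in Parental (log2 fold change 0.46 ± 0.07, edgeR adjusted p = 3.91e-05). The Chka libraries of ATP11A/C KD lay above all others.

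Pcyt1a makes CDP-choline, the rate-limiting step of phosphatidylcholine synthesis (chromosome 16, 32430921 to 32475070, plus strand), and its promoter holds the sterol element letters shown above. It had 58.4, 61.2, 57.5 and 56.9 CPM in ORP5/8 KD, 73.0, 70.8, 70.7 and 74.0 CPM in ATP11A/C KD and 74.4, 70.7, 74.0 and 69.4 CPM in CDC50A KD, against 77.9, 79.5, 73.6 and 81.3 CPM in Parental. The ORP5/8 KD libraries lay below the other 12. Pcyt1a fell in ORP5/8 KD, at a log2 fold change of -0.42 ± 0.04 (edgeR adjusted p = 3.88e-08). The changes were -0.11 ± 0.04 for ATP11A/C KD and -0.11 ± 0.04 for CDC50A KD (edgeR adjusted p = 0.0335 and 0.0260). The call in ATP11A/C KD was lost in 9 of 16 fits that left out a library (without Parental 1, 2 or 4, ORP5/8 KD 1, 2 or 3, or ATP11A/C KD 2, 3 or 4; adjusted p of up to 0.129), and that in CDC50A KD without Parental 1, 2 or 4 or CDC50A KD 4 (up to 0.0962). Both calls were also lost with no low-count filter (adjusted p = 0.0940 and 0.117), and that in ATP11A/C KD under upper-quartile scaling and with the compared groups alone (0.0872 and 0.0666). Pcyt2, which makes CDP-ethanolamine, was called lower in CDC50A KD, with 88.6, 81.4, 87.4 and 92.8 CPM, against 99.2, 87.4, 104 and 107 CPM in Parental (log2 fold change -0.18 ± 0.06, edgeR adjusted p = 0.0130). The groups overlapped for Pcyt2, and the call was lost without Parental 4 (adjusted p = 0.0616).

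Phosphatidate is made by acylation of glycerol phosphate and then of lysophosphatidate. Of the 8 genes of these steps, 1 was called higher and 5 lower in ORP5/8 KD, 0 higher and 2 lower in ATP11A/C KD, and 5 higher and 1 lower in CDC50A KD. The shares over all genes called higher and lower were 22% and 24.3% in ORP5/8 KD, 17.4% and 20.2% in ATP11A/C KD, and 24.3% and 26.1% in CDC50A KD. Agpat4, a lysophosphatidate acyltransferase (chromosome 17, 12118704 to 12219645, plus strand), had 6.39, 6.56, 7.10 and 6.47 CPM in ORP5/8 KD, 5.76, 5.86, 6.70 and 6.76 CPM in ATP11A/C KD and 7.0, 6.48, 6.28 and 6.57 CPM in CDC50A KD, against 10.7, 10.4, 11.8 and 12.2 CPM in Parental. Every KD library was below every Parental library, and the KD groups overlapped. The log2 fold changes were -0.76 ± 0.08 for ORP5/8 KD, -0.85 ± 0.08 for ATP11A/C KD and -0.77 ± 0.08 for CDC50A KD (edgeR adjusted p = 1.21e-07, 4.73e-08 and 1.73e-07). Between KD groups Agpat4 differed by at most 0.08 (SE 0.08, ORP5/8 KD against ATP11A/C KD, edgeR adjusted p = 0.485).

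Gpat3, an acyltransferase of the endoplasmic reticulum for glycerol phosphate (chromosome 5, 100845713 to 100899102, plus strand), was among the lowest-expressed of the 40 genes. It had 0.920, 1.68, 0.983 and 1.75 CPM in ORP5/8 KD, 1.63, 1.29, 1.44 and 1.61 CPM in ATP11A/C KD and 1.98, 2.10, 1.59 and 2.14 CPM in CDC50A KD, against 2.06, 2.13, 2.45 and 2.86 CPM in Parental. The ORP5/8 KD libraries fell into a lower pair (1 and 3) and a higher pair (2 and 4), both below Parental, and CDC50A KD overlapped Parental. Gpat3 fell, with log2 fold changes of -0.83 ± 0.20 in ORP5/8 KD and -0.67 ± 0.20 in ATP11A/C KD (edgeR adjusted p = 0.00163 and 0.0110), and was -0.28 ± 0.19 in CDC50A KD (edgeR adjusted p = 0.238). These values rest on 35 to 95 counts per library. Gpat4, the other acyltransferase of that membrane, fell in ORP5/8 KD, at 162, 165, 155 and 152 CPM against 188, 189, 181 and 185 CPM in Parental (log2 fold change -0.23 ± 0.04, edgeR adjusted p = 1.65e-04). Gpam, the mitochondrial form, was 0.12 ± 0.05 in CDC50A KD (edgeR adjusted p = 0.0459). That call was lost in 8 of 16 fits that left out a library (Parental 2, 3 or 4, ATP11A/C KD 1, or any CDC50A KD library; adjusted p of up to 0.135). It was also lost with no low-count filter (adjusted p = 0.0702), under 1 CPM in 4 libraries (0.0783), with a block on replicate number (0.0543) and in the Wald test of DESeq2 (0.0507).

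The lysophosphatidate acyltransferases Agpat3 and Agpat5 were lower in ORP5/8 KD and higher in CDC50A KD. Agpat5 had 111, 109.7, 103 and 107 CPM in ORP5/8 KD and 143, 149, 138 and 128 CPM in CDC50A KD, against 118, 128, 126 and 119 CPM in Parental. Its log2 fold changes were -0.19 ± 0.05 in ORP5/8 KD and 0.18 ± 0.05 in CDC50A KD (edgeR adjusted p = 0.00208 and 0.00218), and the groups did not overlap Parental. For Agpat3 they were -0.17 ± 0.06 and 0.28 ± 0.06 (edgeR adjusted p = 0.0194 and 5.23e-04), and the ORP5/8 KD call did not hold when ORP5/8 KD 1, Parental 1 or Parental 2 was left out (adjusted p of up to 0.115) or under upper-quartile scaling (-0.10, adjusted p = 0.149). In the direct contrast, ORP5/8 KD was below CDC50A KD, at -0.45 ± 0.06 for Agpat3 and -0.37 ± 0.05 for Agpat5 (edgeR adjusted p = 1.58e-06 and 8.15e-07). Agpat2, another enzyme of this step, rose in ORP5/8 KD by 0.28 ± 0.06 and in CDC50A KD by 0.43 ± 0.06 (edgeR adjusted p = 7.39e-04 and 7.05e-06), with no overlap with Parental. Agpat1 was called higher in CDC50A KD at 0.18 ± 0.06 (edgeR adjusted p = 0.0124), a call lost without CDC50A KD 3 (adjusted p = 0.0807).

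The lipins dephosphorylate phosphatidate to diacylglycerol. Lpin2 (chromosome 17, 71182560 to 71249817, plus strand) had 106, 100.2, 99.9 and 98.3 CPM in ORP5/8 KD, 77.7, 67.7, 79.7 and 73.8 CPM in ATP11A/C KD and 62.7, 61.0, 65.3 and 64.1 CPM in CDC50A KD, against 67.4, 63.1, 69.3 and 68.5 CPM in Parental. The 4 ORP5/8 KD libraries lay above the other 12. Lpin2 rose in ORP5/8 KD by 0.59 ± 0.05 (1.51-fold) and in ATP11A/C KD by 0.16 ± 0.05 (edgeR adjusted p = 1.67e-09 and 0.0142), and was -0.08 ± 0.05 in CDC50A KD (edgeR adjusted p = 0.172). ATP11A/C KD overlapped Parental for Lpin2. Lpin1 fell in ATP11A/C KD, with 20.5, 16.3, 19.2 and 18.7 CPM, against 23.3, 23.9, 23.5 and 25.5 CPM in Parental (log2 fold change -0.36 ± 0.07, edgeR adjusted p = 4.47e-04). The Lpin1 libraries of ATP11A/C KD lay below the other 12.

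Of the 6 genes of the CDP-diacylglycerol branch, 0 were called higher and 2 lower in ORP5/8 KD, 0 higher and 1 lower in ATP11A/C KD, and 1 higher and 1 lower in CDC50A KD. Of all genes, 22% were called higher and 24.3% lower in ORP5/8 KD, 17.4% higher and 20.2% lower in ATP11A/C KD, and 24.3% higher and 26.1% lower in CDC50A KD, so none of these counts is more than 1 gene above the background. Cds1, a CDP-diacylglycerol synthase (chromosome 5, 101765130 to 101823858, plus strand), had 13.4, 13.0, 12.9 and 12.7 CPM in ORP5/8 KD, 9.75, 10.2, 10.3 and 9.77 CPM in ATP11A/C KD and 8.47, 10.5, 8.52 and 8.15 CPM in CDC50A KD, against 15.6, 15.9, 17.4 and 16.4 CPM in Parental. Every KD library lay below Parental, and ORP5/8 KD lay between Parental and the other KD groups without overlap. Cds1 fell, with log2 fold changes of -0.33 ± 0.07 for ORP5/8 KD, -0.71 ± 0.07 for ATP11A/C KD and -0.88 ± 0.07 for CDC50A KD (edgeR adjusted p = 7.00e-04, 9.94e-08 and 4.24e-09). ORP5/8 KD exceeded ATP11A/C KD by 0.38 ± 0.07 and CDC50A KD by 0.55 ± 0.07 (edgeR adjusted p = 2.88e-04 and 2.48e-06). The paralogue Cds2 was not called against Parental, with log2 fold changes between -0.06 and 0.11.

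In the same branch, Crls1, the cardiolipin synthase, fell in ORP5/8 KD, at a log2 fold change of -0.19 ± 0.05 (edgeR adjusted p = 0.00415). Under upper-quartile scaling it was -0.12 (adjusted p = 0.0624) and no longer called. Ptpmt1, the mitochondrial phosphatase that makes phosphatidylglycerol on the way to cardiolipin, rose in CDC50A KD by 0.32 ± 0.06 (edgeR adjusted p = 1.79e-04). Neither overlapped Parental in those groups: Crls1 had 33.5, 35.3, 33.9 and 33.3 CPM in ORP5/8 KD against 40.2, 39.8, 38.8 and 36.8 CPM in Parental, and Ptpmt1 had 29.5, 27.8, 26.8 and 25.7 CPM in CDC50A KD against 22.4, 22.8, 20.9 and 22.1 CPM in Parental. Ptpmt1 is listed as a non-coding record in the count file. Cdipt, which makes phosphatidylinositol, and Pgs1, which starts the cardiolipin route, were not called against Parental. Their log2 fold changes there lay between -0.10 and 0.12.

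**Figure D3:**
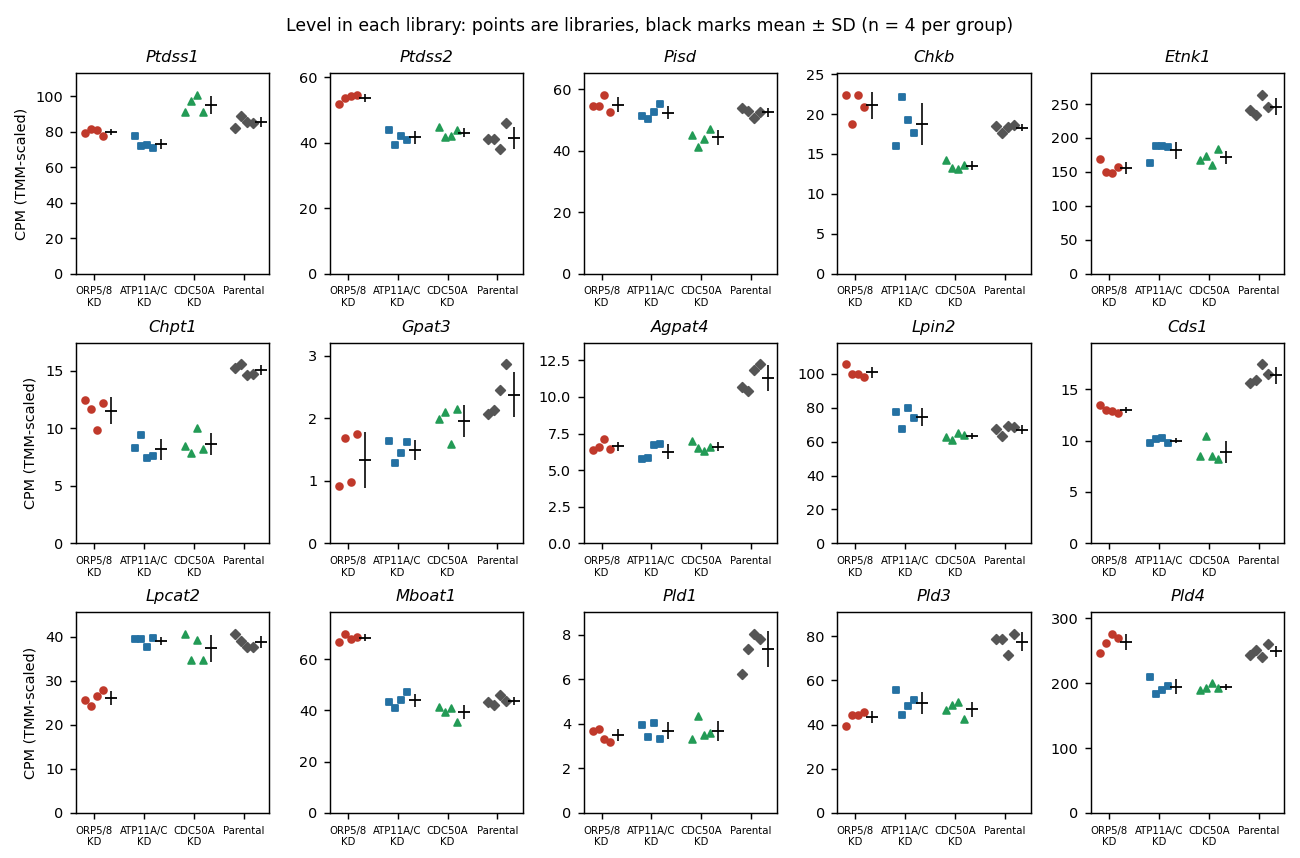
Level of 15 genes in CPM in each of the 16 libraries, with ORP5/8 KD, ATP11A/C KD, CDC50A KD and Parental from left to right; points are libraries, black marks are the mean ± SD of 4 libraries, and every axis starts at 0. The KD libraries lie below Parental in every group for Etnk1, Chpt1, Agpat4, Cds1, Pld1 and Pld3, whereas ORP5/8 KD stands apart from the other 12 libraries for Ptdss2, Lpin2, Lpcat2 and Mboat1.

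Lysophospholipid acyltransferases put an acyl chain back on a phospholipid that has lost one. Of 7 such genes, 1 was called higher and 4 lower in ORP5/8 KD, 1 higher and 3 lower in ATP11A/C KD, and 2 higher and 2 lower in CDC50A KD. Of all genes, 22% were higher and 24.3% lower in ORP5/8 KD, 17.4% and 20.2% in ATP11A/C KD, and 24.3% and 26.1% in CDC50A KD, so the counts in CDC50A KD are close to the background. Mboat1, which acylates lysophosphatidylserine and lysophosphatidylethanolamine (chromosome 13, 30136489 to 30246717, plus strand), had 66.6, 69.8, 67.8 and 68.7 CPM in ORP5/8 KD, 43.4, 40.8, 44.1 and 47.2 CPM in ATP11A/C KD and 41.4, 39.3, 41.0 and 35.4 CPM in CDC50A KD, against 43.1, 42.2, 46.0 and 43.5 CPM in Parental. The ORP5/8 KD libraries lay above the other 12 with a wide gap. Mboat1 rose in ORP5/8 KD by 0.64 ± 0.05, or 1.56-fold (edgeR adjusted p = 1.45e-09), and exceeded ATP11A/C KD by 0.64 ± 0.05 and CDC50A KD by 0.80 ± 0.05 (edgeR adjusted p = 2.74e-09 and 5.88e-11). It was 0.01 ± 0.05 for ATP11A/C KD and -0.15 ± 0.05 for CDC50A KD (edgeR adjusted p = 0.948 and 0.0204), and the CDC50A KD call was lost without Parental 3 or CDC50A KD 4 (adjusted p of up to 0.0735).

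Lpcat2, which acylates lysophosphatidylcholine and makes platelet-activating factor in inflammatory cells (chromosome 8, 92855339 to 92919279, plus strand), had 25.7, 24.3, 26.5 and 28.0 CPM in ORP5/8 KD, 39.4, 39.4, 37.7 and 39.7 CPM in ATP11A/C KD and 40.7, 34.7, 39.3 and 34.8 CPM in CDC50A KD, against 40.6, 38.9, 37.7 and 37.6 CPM in Parental. The ORP5/8 KD libraries lay below the other 12, which overlapped. Lpcat2 fell in ORP5/8 KD, at a log2 fold change of -0.57 ± 0.06 against Parental, -0.58 ± 0.06 against ATP11A/C KD and -0.52 ± 0.06 against CDC50A KD (edgeR adjusted p = 5.16e-08, 5.56e-08 and 1.98e-07). In ATP11A/C KD and CDC50A KD its log2 fold changes against Parental were 0.01 ± 0.06 and -0.05 ± 0.06 (edgeR adjusted p = 0.896 and 0.497). Lpcat2 and Mboat1 thus moved in opposite directions in ORP5/8 KD.

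Among the other acyltransferases, Lpcat4, which acylates lysophospholipids of ethanolamine, choline and serine, fell in ORP5/8 KD, at a log2 fold change of -0.29 ± 0.07, and in ATP11A/C KD, at -0.25 ± 0.07 (edgeR adjusted p = 0.00192 and 0.00793). Lclat1, which acylates lysocardiolipin, was lower in ORP5/8 KD, at -0.22 ± 0.05, and higher in CDC50A KD, at 0.16 ± 0.05 (edgeR adjusted p = 8.96e-04 and 0.00849). In both groups its libraries lay apart from Parental, with 25.5, 25.9, 26.5 and 26.6 CPM in ORP5/8 KD and 32.5, 35.1, 34.4 and 34.4 CPM in CDC50A KD, against 31.8, 31.0, 30.8 and 28.1 CPM in Parental. Its call in ATP11A/C KD (-0.13, edgeR adjusted p = 0.0411) was lost in 10 of 16 fits that left out a library (Parental 1, 2 or 3, ORP5/8 KD 1, 2 or 3, or any ATP11A/C KD library; adjusted p of up to 0.189). It was also lost with no low-count filter (0.132), under upper-quartile scaling (0.0957), with a block on replicate number (0.0609) and with the compared groups alone (0.0955).

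Lpgat1, an acyltransferase of lysophosphatidylglycerol, was called lower in each KD group, at -0.20 ± 0.05 for ORP5/8 KD, -0.13 ± 0.05 for ATP11A/C KD and -0.15 ± 0.05 for CDC50A KD (edgeR adjusted p = 0.00176, 0.0385 and 0.0151). Its ATP11A/C KD call was lost in 10 of 16 fits (any Parental or ATP11A/C KD library, or ORP5/8 KD 2 or 3; adjusted p of up to 0.121) and its CDC50A KD call without Parental 1 (adjusted p = 0.0512). The ATP11A/C KD call was also lost under upper-quartile scaling (0.0886), with no low-count filter (0.0524) and with a block on replicate number (0.0509). Lpcat1, an acyltransferase of lysophosphatidylcholine, rose in CDC50A KD by 0.18 ± 0.05 (edgeR adjusted p = 0.00198). In ATP11A/C KD it was 0.12 ± 0.05 (edgeR adjusted p = 0.0475), a call lost in 9 of 16 fits (Parental 1 or 4, ORP5/8 KD 4, ATP11A/C KD 1 or 4, or any CDC50A KD library; adjusted p of up to 0.121). The same call was lost with no low-count filter (0.0998), under 1 CPM in 4 libraries (0.0602), with a block on replicate number (0.0595) and with the compared groups alone (0.0547). Mboat7, which puts arachidonate on lysophosphatidylinositol, was called in no comparison, and its levels were 39.7 ± 3.41 CPM in ORP5/8 KD, 38.2 ± 2.14 CPM in ATP11A/C KD and 39.0 ± 0.445 CPM in CDC50A KD, against 39.0 ± 2.40 CPM in Parental (SD, n = 4 each).

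Pld1 had the largest log2 fold change in size among the 40 genes in each KD group against Parental. Pld1 cleaves phosphatidylcholine to phosphatidate and choline (chromosome 3, 27938695 to 28133362, plus strand), while Pld3 (chromosome 7, 27532000 to 27553218, minus strand) and Pld4 (chromosome 12, 112760655 to 112768990, plus strand) are known as endolysosomal exonucleases of single-stranded nucleic acids. Pld1 had 3.68, 3.78, 3.32 and 3.20 CPM in ORP5/8 KD, 3.96, 3.39, 4.06 and 3.32 CPM in ATP11A/C KD and 3.32, 4.33, 3.49 and 3.57 CPM in CDC50A KD, against 6.25, 7.36, 8.04 and 7.80 CPM in Parental. Every KD library lay below every Parental library, and the 3 KD groups overlapped one another. Pld1 fell, with log2 fold changes of -1.07 ± 0.11 (2.10-fold lower) for ORP5/8 KD, -0.99 ± 0.11 (1.99-fold lower) for ATP11A/C KD and -1.01 ± 0.11 (2.02-fold lower) for CDC50A KD (edgeR adjusted p = 7.11e-08, 3.45e-07 and 2.84e-07). Between KD groups its log2 fold changes were -0.08 ± 0.12 (ORP5/8 KD against ATP11A/C KD), -0.06 ± 0.12 (ORP5/8 KD against CDC50A KD) and -0.02 ± 0.12 (CDC50A KD against ATP11A/C KD), none of them called.

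Pld3 had 39.3, 44.4, 44.3 and 45.6 CPM in ORP5/8 KD, 55.6, 44.2, 48.2 and 51.3 CPM in ATP11A/C KD and 46.4, 49.1, 50.1 and 42.4 CPM in CDC50A KD, against 78.8, 79.0, 71.4 and 81.2 CPM in Parental. The KD libraries lay below Parental in every group, and the KD groups overlapped. Pld3 fell, with log2 fold changes of -0.84 ± 0.07 for ORP5/8 KD, -0.64 ± 0.07 for ATP11A/C KD and -0.73 ± 0.07 for CDC50A KD (edgeR adjusted p = 1.16e-09, 1.21e-07 and 1.85e-08). The Pld3 promoter above holds the interferon core letters, which 8.55% of all promoters hold.

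Pld4 had 247, 262, 276 and 269 CPM in ORP5/8 KD, 209.8, 183, 189.9 and 196 CPM in ATP11A/C KD and 189.6, 193, 201 and 193 CPM in CDC50A KD, against 244, 252, 241 and 261 CPM in Parental. ATP11A/C KD and CDC50A KD lay below the other 8 libraries, and ORP5/8 KD overlapped Parental. Pld4 fell, with log2 fold changes of -0.36 ± 0.05 for ATP11A/C KD and -0.36 ± 0.05 for CDC50A KD (edgeR adjusted p = 2.36e-06 and 1.67e-06), and was 0.08 ± 0.05 in ORP5/8 KD (edgeR adjusted p = 0.159). ORP5/8 KD exceeded ATP11A/C KD by 0.44 ± 0.05 and CDC50A KD by 0.44 ± 0.05 (edgeR adjusted p = 1.33e-07 and 7.53e-08). For Pld3 the contrasts were -0.20 ± 0.07 (ORP5/8 KD against ATP11A/C KD) and -0.11 ± 0.07 (ORP5/8 KD against CDC50A KD). The first of these was called (edgeR adjusted p = 0.0229) and lost without ORP5/8 KD 1 or ATP11A/C KD 1 or 4 (adjusted p of up to 0.109). Under upper-quartile scaling it was -0.15 (adjusted p = 0.0808).

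The phospholipases A2 cut an acyl chain from a phospholipid. Pla2g4a, the cytosolic enzyme that releases arachidonate, had 212, 187, 178 and 185 CPM in ORP5/8 KD, 175, 214, 194 and 201 CPM in ATP11A/C KD and 171, 179, 175 and 184 CPM in CDC50A KD, against 238, 241, 248 and 243 CPM in Parental. Every KD library lay below every Parental library. Pla2g4a fell, with log2 fold changes of -0.35 ± 0.06 for ORP5/8 KD, -0.31 ± 0.06 for ATP11A/C KD and -0.45 ± 0.06 for CDC50A KD (edgeR adjusted p = 2.45e-05, 1.35e-04 and 1.00e-06). Pla2g6, the calcium-independent enzyme, went the other way in ORP5/8 KD and ATP11A/C KD. It had 21.0, 20.4, 24.8 and 24.3 CPM in ORP5/8 KD, 24.3, 17.6, 22.1 and 20.8 CPM in ATP11A/C KD and 14.8, 16.2, 17.1 and 18.6 CPM in CDC50A KD, against 17.3, 18, 15.3 and 17.4 CPM in Parental. Its rise was 0.41 ± 0.09 in ORP5/8 KD and 0.32 ± 0.09 in ATP11A/C KD (edgeR adjusted p = 0.00103 and 0.0102), and ATP11A/C KD overlapped Parental through its library 2.

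Pla2g15, the lysosomal phospholipase A2, was called higher in ATP11A/C KD at 0.14 ± 0.05 and higher in CDC50A KD at 0.17 ± 0.05 (edgeR adjusted p = 0.0433 and 0.0128). The call in ATP11A/C KD was lost in 8 of 16 fits (Parental 3 or 4, ATP11A/C KD 1 or 4, or any CDC50A KD library; adjusted p of up to 0.170). With no low-count filter or with the compared groups alone it was lost too (adjusted p = 0.104 in each), as it was with a block on replicate number (0.0620). The call in CDC50A KD was lost without Parental 4 or CDC50A KD 3 (adjusted p of up to 0.0622).

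Several steps are served by a pair of paralogues, and their balance was described by the share of 1 gene in the summed length-scaled level of the pair. Ptdss2 made up 33.9% ± 0.793 of the phosphatidylserine synthase pair in ORP5/8 KD, 25.7% ± 1.52 in CDC50A KD and 30.2% ± 0.515 in ATP11A/C KD, against 27.1% ± 1.74 in Parental (SD, n = 4 each). The ORP5/8 KD and ATP11A/C KD libraries all lay above those of Parental, the highest of which was 29.2%. Chkb made up 84.1% ± 0.777 of the choline kinase pair in ORP5/8 KD, 75.5% ± 1.39 in CDC50A KD and 77.7% ± 1.74 in ATP11A/C KD, against 82.5% ± 0.993 in Parental, so it was lower where Chka rose (ATP11A/C KD) and where Chkb itself fell (CDC50A KD). Cds1 made up 31.3% ± 0.279 of the CDP-diacylglycerol synthase pair in ORP5/8 KD, 24.1% ± 2.81 in CDC50A KD and 24.2% ± 1.94 in ATP11A/C KD, against 35.9% ± 1.07 in Parental, with no overlap between any KD group and Parental.

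Lpin2 made up 76.3% ± 1.70 of the lipin pair in ORP5/8 KD, 68.4% ± 1.56 in CDC50A KD and 76.0% ± 0.815 in ATP11A/C KD, against 68.8% ± 1.15 in Parental. ORP5/8 KD and ATP11A/C KD overlapped in this share. Lpin2 was called higher in both, and Lpin1 was called lower in ATP11A/C KD. Pcyt2 made up 74.8% ± 1.49 of the cytidyl transferase pair in ORP5/8 KD, 67.4% ± 1.45 in CDC50A KD and 71.3% ± 1.07 in ATP11A/C KD, against 68.4% ± 2.28 in Parental, and its enzymes serve different head groups. Gpat3 made up 1.58% ± 0.525 of the Gpat3 and Gpat4 pair in ORP5/8 KD, 1.87% ± 0.265 in CDC50A KD and 1.56% ± 0.0922 in ATP11A/C KD, against 2.39% ± 0.381 in Parental. The shares are descriptions, with no test, and their absolute size depends on the exon lengths used: the longest transcript in place of all exons moved 18 of the 24 group means by more than their SD.

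**Figure D4:**
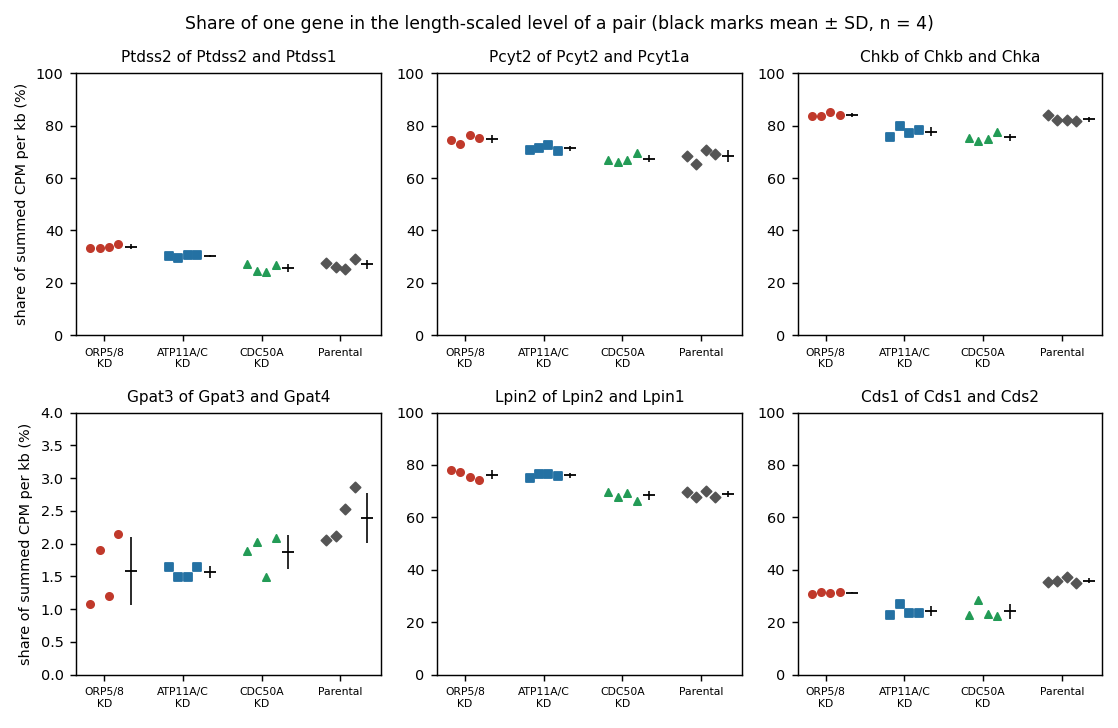
Share, in percent, of 1 gene in the summed length-scaled level of 6 paralogue pairs in each library, with ORP5/8 KD, ATP11A/C KD, CDC50A KD and Parental from left to right; points are libraries and black marks the mean ± SD of 4, and the Gpat3 panel runs from 0 to 4% and the others from 0 to 100%. The Cds1 share is 31.3%, 24.2% and 24.1% in the KD groups against 35.9% in Parental, and the Lpin2 share is 76.3% and 76.0% in ORP5/8 KD and ATP11A/C KD against 68.8% in Parental.

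The KD groups were also compared with each other in the same fit, where Parental libraries enter the scaling and the estimate of spread but not the contrast. In the fits that left out a library, 16 of 21 calls stayed throughout in ORP5/8 KD against ATP11A/C KD, 23 of 26 in ORP5/8 KD against CDC50A KD and 11 of 17 in CDC50A KD against ATP11A/C KD. ORP5/8 KD against ATP11A/C KD gave 9 of the 40 genes higher and 12 lower, against 38.7% of all genes called (18.2% higher and 20.4% lower), and 12 higher and 9 lower under upper-quartile scaling. ORP5/8 KD against CDC50A KD gave 10 higher and 16 lower, against 56.8% of all genes called (27.5% higher and 29.4% lower), and 12 higher and 14 lower under upper-quartile scaling. CDC50A KD against ATP11A/C KD gave 8 higher and 9 lower, against 26.2% of all genes called (13.5% higher and 12.7% lower), and 5 higher and 10 lower under upper-quartile scaling. The count of 8 was 5 without ATP11A/C KD 3 or CDC50A KD 1, 2 or 3. Past 1.5-fold, ORP5/8 KD exceeded ATP11A/C KD for Mboat1 and CDC50A KD for Chkb, Lpin2 and Mboat1, which is 1 and 3 of the 40 genes, against 4.95% and 10.1% of all genes. No gene of the 40 was lower by that margin in either contrast, against 4.29% and 5.68% of all genes, and none passed it in CDC50A KD against ATP11A/C KD, where 0.969% of all genes were higher and 3.38% lower by that margin. Lpin2 exceeded ATP11A/C KD by 0.43 ± 0.05 and CDC50A KD by 0.67 ± 0.05 in ORP5/8 KD (edgeR adjusted p = 2.82e-07 and 2.59e-10). In the contrast of ORP5/8 KD with CDC50A KD, 6 of the 8 genes of the acylations to phosphatidate were lower in ORP5/8 KD and 0 higher, with a range of -0.55 (Gpat3) to 0.01 (Agpat4). Of these 6, the Gpat3 call was lost without ORP5/8 KD 1 or 3 or CDC50A KD 1, 2 or 4 (adjusted p of up to 0.10) and the Agpat2 call in 10 of 16 fits (up to 0.184). The Gpat3 call was also lost with the compared groups alone (0.0527), and the Agpat2 call under each alternative but DESeq2 size factors and the DESeq2 Wald test (0.0513 to 0.255). Upper-quartile scaling shifted the median of all genes upward by 0.07 in ORP5/8 KD against CDC50A KD. Counts for the other roles in the contrasts between KD groups are not given.

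Other genes of phospholipid metabolism were taken from a separate list of 67, of which 64 are in the file and 48 were tested. In ORP5/8 KD 9 of the 48 were called higher and 17 lower, in ATP11A/C KD 7 higher and 17 lower, and in CDC50A KD 9 higher and 19 lower, against 22% and 24.3% of all genes in ORP5/8 KD, 17.4% and 20.2% in ATP11A/C KD, and 24.3% and 26.1% in CDC50A KD. Plpp1, which dephosphorylates phosphatidate and lysophosphatidate at the cell surface, had 17.3 ± 0.803 CPM in ORP5/8 KD against 42.3 ± 0.693 CPM in Parental (log2 fold change -1.29 ± 0.05, edgeR adjusted p = 2.77e-14). Gdpd1, a lysophospholipase D of the glycerophosphodiesterase family, was lower in the other groups. It had 5.82 ± 0.356 CPM in ATP11A/C KD against 17.1 ± 1.16 CPM in Parental (log2 fold change -1.56 ± 0.07, edgeR adjusted p = 4.71e-13) and 5.66 ± 0.338 CPM in CDC50A KD against 17.1 ± 1.16 CPM in Parental (log2 fold change -1.60 ± 0.08, edgeR adjusted p = 4.38e-13). Pla1a, a phospholipase A1 that acts on phosphatidylserine, had 1.60 ± 0.301 CPM in ORP5/8 KD against 3.74 ± 0.542 CPM in Parental (log2 fold change -1.23 ± 0.17, edgeR adjusted p = 4.28e-06). Its level was 2.23 ± 0.150 CPM in ATP11A/C KD against 3.74 ± 0.542 CPM in Parental (log2 fold change -0.75 ± 0.17, edgeR adjusted p = 0.00118) and 1.90 ± 0.466 CPM in CDC50A KD against 3.74 ± 0.542 CPM in Parental (log2 fold change -0.96 ± 0.17, edgeR adjusted p = 8.95e-05). Pld2, the paralogue of Pld1, had 9.17 ± 0.276 CPM in CDC50A KD against 17.6 ± 1.60 CPM in Parental (log2 fold change -0.95 ± 0.08, edgeR adjusted p = 4.71e-09). Abhd6, a hydrolase of monoacylglycerol and lysophospholipids, had 22.5 ± 1.07 CPM in CDC50A KD against 11.8 ± 0.818 CPM in Parental (log2 fold change 0.93 ± 0.08, edgeR adjusted p = 7.73e-09). Slc44a2, a choline transporter, had 63.1 ± 3.05 CPM in ATP11A/C KD against 105 ± 2.79 CPM in Parental (log2 fold change -0.74 ± 0.05, edgeR adjusted p = 2.88e-11). Dgat2, which turns diacylglycerol into triacylglycerol, had 2.45 ± 0.202 CPM in ORP5/8 KD against 1.35 ± 0.247 CPM in Parental (log2 fold change 0.85 ± 0.21, edgeR adjusted p = 0.00194). Mogat1, a monoacylglycerol acyltransferase at a low level, had 0.547 ± 0.188 CPM in ORP5/8 KD against 1.17 ± 0.149 CPM in Parental (log2 fold change -1.10 ± 0.28, edgeR adjusted p = 0.00268) and 0.621 ± 0.219 CPM in ATP11A/C KD against 1.17 ± 0.149 CPM in Parental (log2 fold change -0.93 ± 0.28, edgeR adjusted p = 0.0112).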

How the data were processed

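Per the labels' protocols, RAW264.7 cells were collected 1 day after plating, and libraries were made from 500 ng of total RNA with a stranded poly(A) kit for paired-end sequencing at 100 bp. Per the submitters' processing notes, Trim Galore 0.5.0, STAR 2.7.5a, Picard and RSEM were used with mm10. The authors deposited RSEM expected counts per gene, and 4.63% of these values have decimals. RSEM divides reads that fit several genes between them, so pseudogene copies and overlapping records can share reads. Here the expected counts were rounded, 92 spike-in records (summing to 0) were left out, and filterByExpr with a minimum count of 10 kept 13107 genes with 100.0% of the counts. The 16 libraries (24020890 to 41543050 counts) were scaled by TMM and fitted together with a term for each group (R 4.3.3, edgeR 4.0.16, limma 3.58.1), and the quasi-likelihood test was adjusted by the Benjamini-Hochberg method over all tested genes in each of 6 comparisons. The common biological coefficient of variation was 6.86%. A standard error is the log2 fold change divided by the square root of its F statistic. The test was also run on simulated counts with known changes in far fewer genes than were called here. That run does not show how the test behaves at the shares of genes called in these data.

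Groups came from the genotype labels. Some genes outside the 40 are not reported here. Length-scaled levels used the union of exons in GENCODE M21 (GRCm38, mm10), which matched all 40 gene identifiers with their versions. Members, roles, gene lists and motifs were chosen with earlier results of these data known. Described in full were genes called with at least a 1.5-fold change in any comparison and the 3 phosphatidylserine genes, and from the separate list the 4 largest called changes in each comparison with Parental. Lpcat2, Pcyt1a, Pld4 and Pla2g4a were picked for fuller values after these were seen. Library values of Pla2g6 were also given in full outside that rule. For Chka, Pcyt2, Gpat4, Agpat5, Lpin1, Crls1, Ptpmt1 and Lclat1 they were given in some groups. Alternatives were scaling by upper quartile or by DESeq2 size factors, a filter of 1 CPM in 4 libraries or none, a block on replicate number, the Wald test of DESeq2 (1.42.0), fits restricted to both groups of a contrast, and the omission of each library. No pair of libraries in a group agreed within sampling noise (chi-square per degree of freedom of at least 4.85). Parental pairs were at 4.85 to 8.93. ATP11A/C KD 1 was at 20.8 to 45.0 against the other libraries of its group, which were at 7.50 to 18.4 among themselves.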

Additional observations from a re-analysis of the deposited data

Results flagged for a closer look

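Each of the 160 sets of 4 libraries (40 genes in 4 groups) was checked for a library far from the others, by the gap to its nearest neighbour over the whole range (critical value 0.829). Chance gives about 1 in 20, and 9 were found. In ATP11A/C KD, Etnk1 was at 163 CPM in library 1, below 187 to 189 CPM in the others. Pcyt2 was at 111 CPM in library 3, above 103 to 104 CPM. Library 2 was low for Gpat4, at 163 CPM against 183 to 186 CPM in the others, and for Cds2, at 63.4 CPM against 74.5 to 76.7 CPM.

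In CDC50A KD, Selenoi was at 53.9 CPM in library 4, below 58.9 to 59.7 CPM in the others. Cds1 was at 10.5 CPM in library 2, above 8.15 to 8.52 CPM, and still below every Parental library. Library 3 was high for Cdipt, at 89.6 CPM against 81.7 to 82.0 CPM, and for Lpcat4, at 64.5 CPM against 57.3 to 58.1 CPM. In Parental, Lpgat1 was at 153 CPM in library 2, below 156 to 157 CPM in the others.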

How the results depend on the processing

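For 140 log2 fold changes of named genes under 8 kinds of alternative, 1022 of 1120 values kept their direction and side of the threshold, 89 lost the call and 1 gained it (Pisd in ORP5/8 KD, 0.14 with an edgeR adjusted p of 0.0178 under upper-quartile scaling). The 8 that reversed were uncalled changes near 0 in ATP11A/C KD against Parental. Ptdss2 was -0.0067 under 1 CPM in 4 libraries, -0.00064 with the compared groups alone and -0.039 without Parental 3. Pisd was 0.021 under upper-quartile scaling and 0.027 without ATP11A/C KD 2. Chkb was -0.039 without ATP11A/C KD 2, and Mboat1 was -0.0016 under 1 CPM in 4 libraries and -0.022 without ATP11A/C KD 4. The cause was not tested.

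Of the counts, genes called higher in ORP5/8 KD were 11 in place of 6 under upper-quartile scaling, which shifted the median of all genes by 0.07 there. Genes called higher in ATP11A/C KD were 3 in place of 5 with no low-count filter or with the compared groups alone, and 3 to 9 on leaving out a library. Genes called higher in CDC50A KD against ATP11A/C KD were 5 in place of 8 under upper-quartile scaling or with the compared groups alone, and 5 to 9 on leaving out a library. With the replicate block, the counts higher and lower were 5 and 17 in ORP5/8 KD, 4 and 13 in ATP11A/C KD, and 9 and 14 in CDC50A KD against Parental. Same-numbered libraries did not deviate together (r of -0.17 to 0.11, over 0.1 in 2 of 24 pairs), and 4 of 16 libraries correlated best with a library of their own number. Low counts limit Gpat3 and Pld1 most.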
